A study of Mus musculus with 31 samples.

Results

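The protein disulfide isomerase (PDI) family was followed in mouse liver through 9 genes, P4hb, Pdia6, Pdia4, Pdia3, Pdia5, Erp44, Txndc5, Txndc11 and Tmx1, of 17097 genes measured on a mouse Affymetrix array with perfect-match probes only. The members were chosen with earlier results of these data known, so their counts are not those of a list drawn blind to the data. The array annotation assigned probe sets to them. Each member was read by whichever of its probe sets was brightest on average over the 31 arrays. This choice of probe set used no comparison between groups. Erp44, Pdia6, Txndc5 and Txndc11 had 2 probe sets each and the other members 1. Total RNA came from the liver of male mice in 3 experiments. The first held knockouts (ko) of Xbp1 and their WT littermates, both c57BL/6, 14 weeks old and fed, with 4 arrays each. The second held Xbp1 ko mice only, c57BL/6 and 9 weeks old, so that its control group carries the knockout too, taken 8 days after an injection labelled as siRNA against IRE1 or against luciferase, a control target (4 arrays each). The last held Ire1 ko mice, whose strain is labelled as mixed, and WT mice labelled c57BL/6, all 14 weeks old. They were taken 6 h after 2 mg/kg tunicamycin (4 arrays each), an inhibitor of N-glycosylation that loads the endoplasmic reticulum (ER) with unfolded protein, or fed and untreated (3 Ire1 ko and 4 WT arrays). The labels also call the untreated WT mice of that experiment littermates of the Ire1 ko mice, so if the strain labels hold, genotype and strain cannot be told apart. The labels give neither the deleted exons nor what drives either deletion. No group of the last experiment is labelled as given vehicle, so tunicamycin and the handling of treated mice cannot be told apart.

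PDIs are ER enzymes built from thioredoxin-like domains. They form, break and reshuffle the disulfide bonds of proteins on the secretory route, a heavy load in hepatocytes, which secrete albumin, clotting factors and other disulfide-bonded plasma proteins. When unfolded protein accumulates, the ER sensor IRE1α, encoded by Ern1, cuts the Xbp1 mRNA so that it can be spliced into the form that encodes the transcription factor XBP1s, while the sensors ATF6 and PERK act beside it. IRE1α can also cut other mRNAs at the ER. The study set out to separate genes controlled by XBP1 from mRNAs cut by IRE1α, and the members are described here under both questions.

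Values are linear probe set intensities in whole numbers, and tests were run on their log2. With a lowest value of 3, a median of 5 on each array and 66.2% of all values at or below 6, the table has a floor near which fold changes are compressed. Correlations between arrays of a group, over log2 values of all probe sets, lay between 0.9841 and 0.9934, and 0 pairs of arrays were identical. Xbp1 itself lay at 404 to 567 in Xbp1 ko and at 807 to 1140 in WT littermates. The brightest of 5 Ern1 probe sets, used throughout, lay at 148 to 153 in untreated Ire1 ko and at 121 to 203 in untreated WT liver. It did not show the deletion. The other Ern1 probe sets lay between 4 and 16 on every array, near the floor. In the siRNA experiment the brightest Ern1 probe set went against the labels. It had 169, 184, 236 and 230 on the arrays labelled IRE1 siRNA and 21, 18, 23 and 35 on those labelled luciferase siRNA. In the 14-week-old Xbp1 ko mice without siRNA, Ern1 lay at 175 to 201. That range overlapped the arrays labelled IRE1 siRNA and none of those labelled luciferase siRNA. Every direction in the siRNA experiment is given as labelled and turns if the labels were exchanged. All 10 hepatocyte markers had means of 16 or more in every group, and their summed intensity lay between 43702 and 53942 over all arrays. Of the markers of other cells that could be measured, all 4 of cholangiocytes and 5 of 6 of pancreatic acinar cells had a mean below 16 in every group.

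For 9 of the 9 members the RefSeq promoter windows of build GRCm38.p6, from 250 bases before to 50 bases after each annotated start, were searched on both strands for motifs of the unfolded protein response. The GACGTG core, shared by sites that XBP1s can bind, was present in windows of 6 members, P4hb, Pdia5, Pdia6, Erp44, Txndc5 and Txndc11, against 7.15% of all genes with a window and 6.38% of all windows. The longer UPRE letters TGACGTGG, which contain the core, were present in Txndc5 and Txndc11, against 0.714% of genes and 0.676% of windows. The ERSE letters, CCAAT and CCACG with 9 bases of any kind between them, known from ER chaperone genes, were present in Pdia6, against 0.137% of genes and 0.119% of windows. The related ERSE-II letters, ATTGG and CCACG with 1 base between them, were present in 0 members, against 0.0444% of genes. Pdia3, Pdia4 and Tmx1 had none of these letters in their windows. Each match is a stretch of letters and no measured binding. The stretches of the 6 members that matched are shown 5′ to 3′ on the strand of the gene, with the motif letters in capitals, because the members printed here respond differently in the comparisons that follow. Hspa5, the gene of the chaperone BiP, is shown beside Pdia6 because both hold the ERSE letters.
Txndc5, chr13:38528034-38528063, minus strand: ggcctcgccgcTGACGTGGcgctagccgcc
Txndc11, chr16:11134533-11134652, minus strand: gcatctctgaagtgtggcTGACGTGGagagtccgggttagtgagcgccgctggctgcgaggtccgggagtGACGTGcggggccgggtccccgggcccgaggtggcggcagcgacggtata
Pdia5, chr16:35490865-35490894, minus strand: catgctttggcaGACGTGgcaccgggaact
P4hb, chr11:120573204-120573233, minus strand: ccgcagccattccaGACGTGtggaaggcgt
Erp44, chr4:48279621-48279650, minus strand: actacatttcccGACGTGcttcgagatggg
Pdia6, chr12:17266479-17266588, plus strand: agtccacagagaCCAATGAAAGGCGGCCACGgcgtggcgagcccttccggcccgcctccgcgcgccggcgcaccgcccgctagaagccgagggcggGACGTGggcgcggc
Hspa5, chr2:34772020-34772049, plus strand: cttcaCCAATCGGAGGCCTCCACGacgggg
The Txndc11 stretch holds the UPRE letters and a second core closer to the start, and the Pdia6 stretch holds the ERSE letters and a core. The Txndc5 match lies in the window of the third of its annotated starts, and the P4hb match lies after the start. The Erp44 core shown spans its start, from -3 to 3. The UPRE letters of Txndc5 and Txndc11 and the Pdia5 core lie before the start of their window. They lie inside the gene spans given below, so those starts are not the outermost ones.

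**Figure D1:**
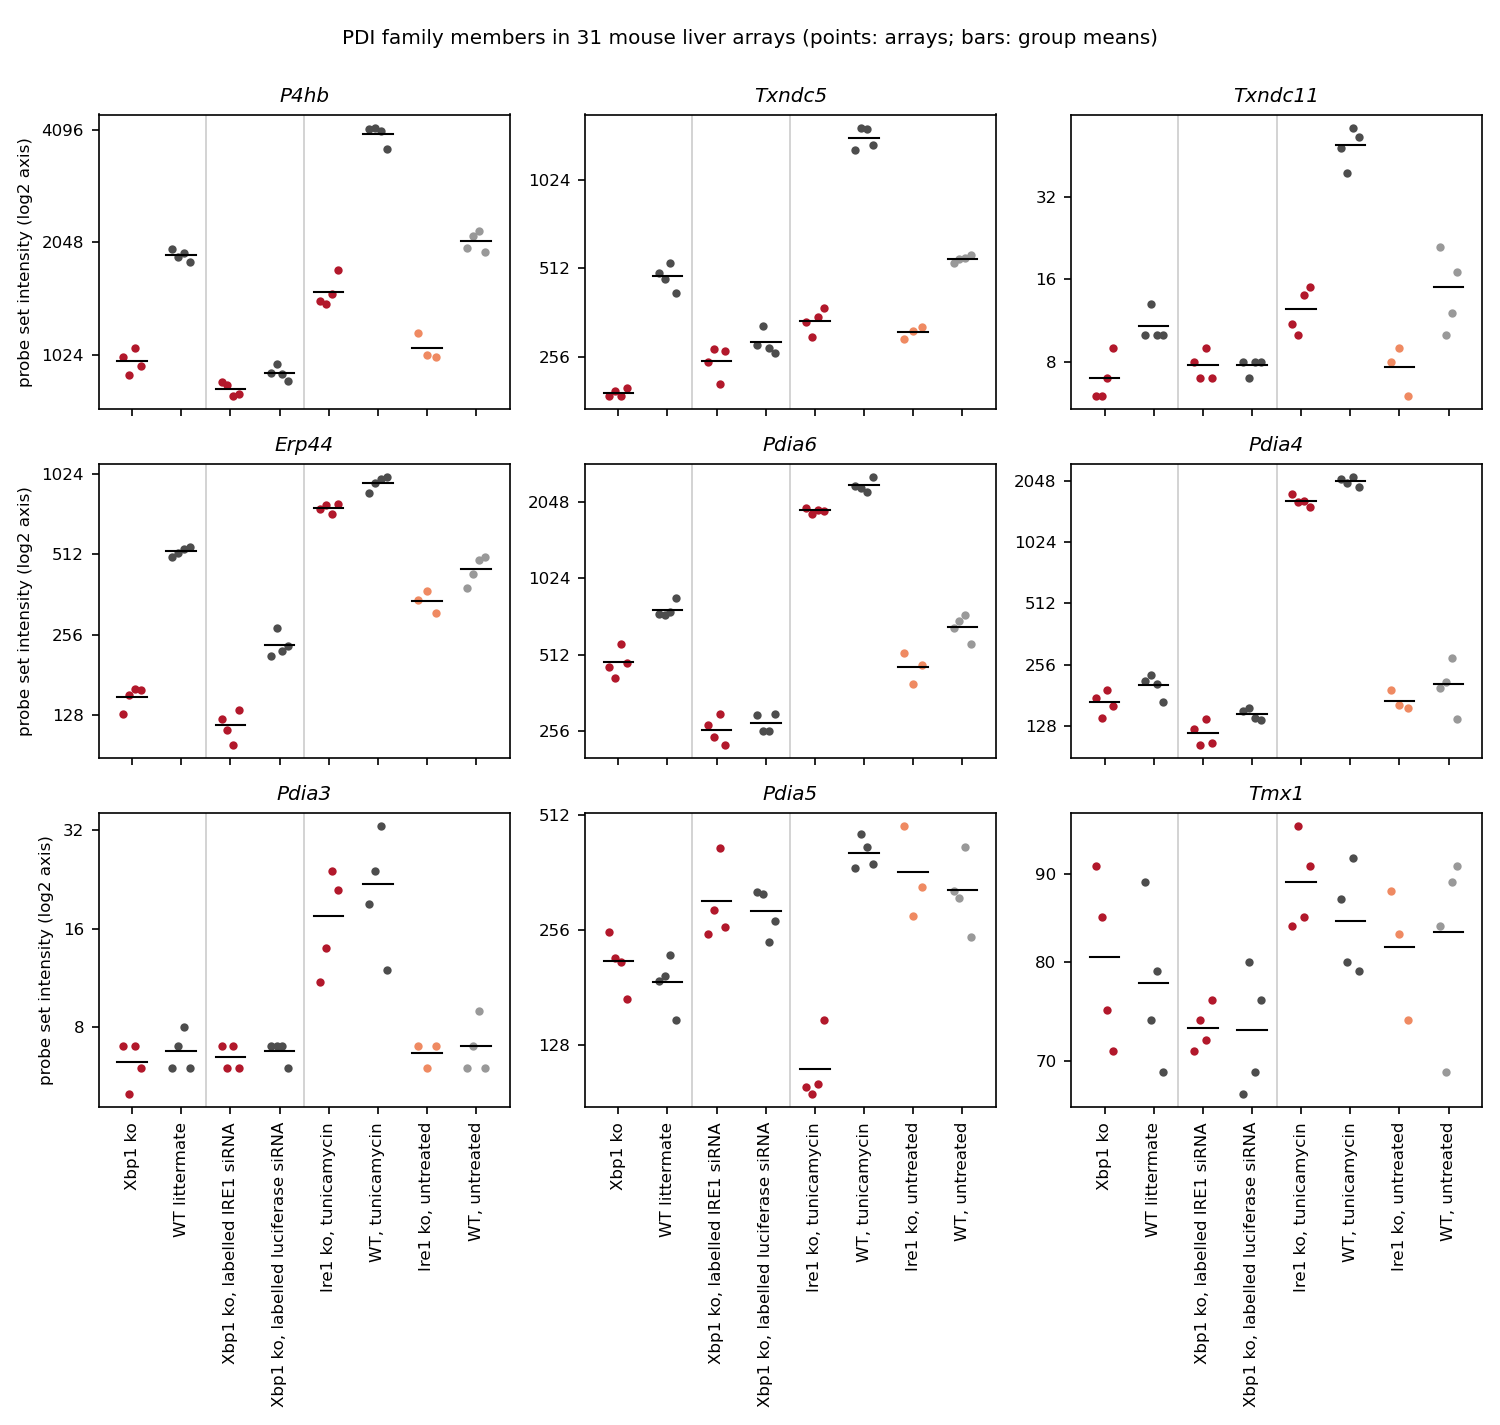
Intensity of each member's probe set (vertical axis, log2 scale, a different range in each panel) on each of the 31 arrays, with the 8 groups along the horizontal axis, points for arrays and bars for group means; vertical lines part the 3 experiments. P4hb, Txndc5 and Txndc11 were highest in WT liver after tunicamycin and far lower in Ire1 ko liver after the same drug, Pdia4, Pdia6 and Erp44 were high in both, Pdia5 was lowest in Ire1 ko liver after tunicamycin, and Tmx1 stayed between 67 and 96.

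In Xbp1 ko liver 4 members fell, Erp44, Txndc5, P4hb and Pdia6, and none rose. Of the 10 hepatocyte markers Cyp2e1 (-0.32) and Apoa1 (-0.28) fell there too. P4hb, the classical PDI and also a subunit of collagen prolyl hydroxylase and of the lipoprotein-loading MTP complex (chr11:120560298-120573253, GRCm38.p6), had 1006, 902, 1066 and 955 in Xbp1 ko and 1968, 1874, 1922 and 1814 in WT littermates. Txndc5, a PDI with several thioredoxin domains (chr13:38500266-38528824), had 188, 195, 188 and 200 in Xbp1 ko and 493, 472, 535 and 423 in WT littermates. Every Xbp1 ko array was below every WT array for both genes, with log2 changes of -0.95 (SE 0.06; limma adjusted p = 0.000118) for P4hb and -1.31 (SE 0.08; limma adjusted p = 0.000118) for Txndc5. Erp44, which retrieves ERO1 oxidases and unassembled secretory proteins from the early Golgi (chr4:48190711-48279635), had 129, 152, 160 and 159 in Xbp1 ko and 500, 518, 534 and 545 in WT littermates. The groups were again apart, and the log2 change of -1.81 (SE 0.08; limma adjusted p = 4.13e-05) was the lowest of the 9 members. Its second, dim probe set lay at 8 to 9 in Xbp1 ko and at 8 to 11 in WT littermates, and the mean over both gave -0.98 with an adjusted p of 0.000639. Pdia6, which acts with BiP on folding substrates and limits IRE1 signalling (chr12:17266589-17284785), had 460, 416, 565 and 475 in Xbp1 ko and 739, 737, 756 and 853 in WT littermates. Its groups did not overlap either, and its log2 change was -0.69 (SE 0.10; limma adjusted p = 0.00843), while the mean over its 2 probe sets gave -0.43 with an adjusted p of 0.131. In bulk liver RNA, fewer cells of a type and less RNA per cell cannot be told apart.

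The other 5 members passed no test in Xbp1 ko. Txndc11, a membrane-bound thioredoxin-domain protein of ER degradation (chr16:11074911-11134645), was dim, with 6, 6, 7 and 9 in Xbp1 ko and 10, 13, 10 and 10 in WT littermates. Its groups did not overlap, and its log2 difference was -0.63 (limma adjusted p = 0.0995), which passed at 0.038 without Xbp1 ko replicate 4 and at 0.0388 after scaling to a common median. Pdia4, a large PDI also known as ERp72, had 176, 140, 192 and 161 in Xbp1 ko and 213, 227, 206 and 167 in WT littermates, groups that overlapped, with a log2 difference of -0.28 and a 95% interval of -0.58 to 0.01. Pdia5 had a log2 difference of 0.18 with a 95% interval of -0.18 to 0.53. Tmx1, a transmembrane PDI of the ER, had a log2 difference of 0.05. Pdia3, the partner of the lectins calnexin and calreticulin in glycoprotein folding, lay between 5 and 8 in both groups, at the floor of the array. Of all 14008 genes tested, 2.71% were called, 2.07% lower and 0.642% higher, against 4 of 9 members lower and 0 higher. Here and in each later comparison in which no member rose, limma also gave 0 members higher at an unadjusted p below 0.05. The median log2 difference was -0.63 over the members and 0.01 over all genes tested. The fit without WT replicate 1 called 237 genes in place of 380, and the members' count stayed between 4 and 5 with any 1 array left out.

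Untreated Ire1 ko liver showed 3 of these genes lower, P4hb, Txndc5 and Pdia6, and none higher. Single arrays stood apart in untreated Ire1 ko liver. Replicate 2 had 117 for Ddit3, a gene induced by ER stress, against 14 and 16 on the other arrays, 275 for Creld2 against 69 and 73, and 111 for Dnajb9 against 52 and 51. Replicate 1 had a summed intensity of 1840 for 7 Kupffer cell markers, against 553 and 621. Calls lost without either array are named beside their values, and P4hb and Txndc5 kept theirs in untreated Ire1 ko liver without replicate 1 or 2. P4hb had 1170, 1019 and 1007 in untreated Ire1 ko and 1979, 2133, 2195 and 1927 in untreated WT liver. Txndc5 had 295, 313 and 322 in untreated Ire1 ko and 535, 552, 557 and 570 in untreated WT liver. The groups did not overlap for either gene, with log2 changes of -0.95 (SE 0.08; limma adjusted p = 1.57e-05) for P4hb and -0.84 (SE 0.09; limma adjusted p = 7.09e-05) for Txndc5. Pdia6 had 521, 392 and 466 in untreated Ire1 ko and 650, 695, 733 and 564 in untreated WT liver, groups that also stood apart, with a log2 change of -0.53 (SE 0.10; limma adjusted p = 0.0121). The Pdia6 call was lost without Ire1 ko replicate 2 (adjusted p = 0.0686), after scaling to a common median (0.0726) and with its probe sets averaged (0.479).

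Erp44 had 346, 374 and 309 in untreated Ire1 ko and 381, 432, 488 and 497 in untreated WT liver. These groups did not overlap, but the log2 difference of -0.39 had an adjusted p of 0.0855 in limma and passed at 0.0263 without WT replicate 1. Txndc11 had 8, 9 and 6 in untreated Ire1 ko and 21, 10, 12 and 17 in untreated WT liver, a log2 difference of -0.93 (limma adjusted p = 0.0924) that passed at 0.0352 without WT replicate 2. Pdia4, Pdia5, Pdia3 and Tmx1 had log2 differences of -0.24, 0.15, -0.05 and -0.02. Of the 15172 genes tested 0.943% were called, 0.863% lower and 0.0791% higher, against 3 of 9 members lower. Without Ire1 ko replicate 3 the calls over all genes fell to 95, against 143 with all arrays. The median log2 difference was -0.39 over the members and -0.03 over all genes tested.

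The losses of Xbp1 and of Ire1 were set against each other in 1 fit of all 31 arrays, as the difference of the 2 knockout effects, each against its own WT arrays. Erp44 alone among the members differed, with a further log2 difference of -1.42 (SE 0.14; limma adjusted p = 3.52e-08), since it fell by 1.81 in Xbp1 ko and had -0.39 in Ire1 ko. With both probe sets averaged the difference was -0.60 (adjusted p = 0.0459). In all, 0.824% of 16018 genes were called and 0.662% were lower. Txndc5 had a difference of -0.48 (limma adjusted p = 0.106), which passed at 0.0486 without WT replicate 4 of the Xbp1 experiment. P4hb had the same log2 change in both knockouts to the second decimal, with a difference of 0.00 and a 95% interval of -0.20 to 0.21. For Pdia6 the difference was -0.17, with a 95% interval of -0.46 to 0.13. The 2 pairs also differ in experiment and in the labelled strain.

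**Figure D2:**
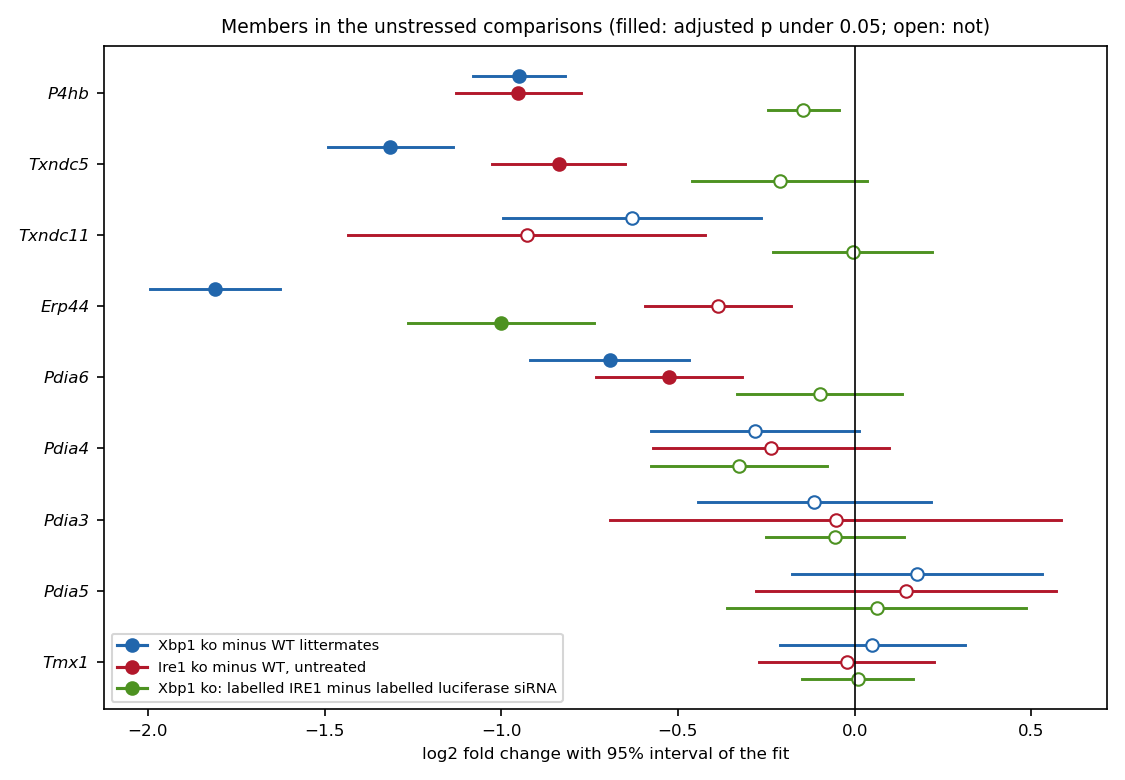
Log2 fold change of each member with the 95% interval of the fit (horizontal axis) in Xbp1 ko against WT littermates, untreated Ire1 ko against untreated WT, and Xbp1 ko arrays labelled IRE1 siRNA against those labelled luciferase siRNA; filled points have an adjusted p under 0.05. P4hb lay at -0.95 in both knockouts, while Erp44 lay at -1.81 in Xbp1 ko, -0.39 in Ire1 ko and -1.0 in the siRNA comparison as labelled.

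Among Xbp1 ko mice, Erp44 was the 1 member that differed between the siRNA groups as labelled. It had 124, 113, 99 and 134 on the arrays labelled IRE1 siRNA, where Ern1 was high, and 212, 270, 223 and 233 on those labelled luciferase siRNA, where Ern1 was low. The groups did not overlap, and the log2 change as labelled was -1.0 (SE 0.11; limma adjusted p = 0.00563). Its second, dim probe set lay at 5 to 7 and at 7 to 11 in the same order, and the mean over both gave -0.72 with an adjusted p of 0.0529. Across the Xbp1 ko mice without siRNA, Erp44 lay at 129 to 160, which overlapped the arrays labelled IRE1 siRNA and none of those labelled luciferase siRNA.

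P4hb lay at 793 to 863 on the arrays labelled IRE1 siRNA and at 870 to 963 on those labelled luciferase siRNA. These groups lay close without overlap, and the log2 difference of -0.14 did not pass (limma adjusted p = 0.183). Pdia4 had -0.33 (limma adjusted p = 0.196) and Txndc5 -0.21 (limma adjusted p = 0.428). The remaining members lay between -0.10 and 0.06 on the log2 scale. Of 14030 genes tested 1.79% were called and 1.14% were lower as labelled, against 1 of 9 members, and the members' median of -0.10 compares with 0.04 over all genes. Of the hepatocyte markers Serpina1a (-0.17) and Cyp2e1 (-0.29) were lower as labelled.

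In Ire1 ko liver tunicamycin raised 6 members and lowered 1. Pdia4 had 1770, 1611, 1632 and 1536 after tunicamycin and 191, 162 and 156 in untreated Ire1 ko liver. Its log2 change was 3.27 (SE 0.16; limma adjusted p = 5.02e-10). Pdia6 had 1946, 1831, 1911 and 1889 after tunicamycin and 521, 392 and 466 in untreated Ire1 ko liver. Erp44 had 757, 781, 723 and 787 after tunicamycin and 346, 374 and 309 in untreated Ire1 ko liver. Treated and untreated arrays were apart for both genes, with log2 changes of 2.05 (SE 0.10; limma adjusted p = 4.87e-10) for Pdia6 and 1.16 (SE 0.10; limma adjusted p = 2.23e-07) for Erp44. P4hb rose to 1423, 1396, 1490 and 1731 in treated Ire1 ko liver, against 1007 to 1170 untreated, a log2 change of 0.50 (SE 0.08; limma adjusted p = 0.000225) that was 0.32 after scaling to a common median. Pdia3 rose to 11, 14, 24 and 21, against 6 to 7 untreated, a log2 change of 1.33 (SE 0.30; limma adjusted p = 0.00297) and of 0.55 on the log2 of the intensity plus 16.

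Txndc5 did not pass in Ire1 ko liver, where it had 335, 298, 349 and 375 after tunicamycin and 295, 313 and 322 untreated. These groups overlapped, with a log2 difference of 0.13 and a 95% interval of -0.06 to 0.31. Txndc11 had 11, 10, 14 and 15 after tunicamycin and 8, 9 and 6 in untreated Ire1 ko liver, a log2 change of 0.71 (SE 0.24; limma adjusted p = 0.0358). That call was lost without untreated Ire1 ko replicate 1 (0.0622) or 3 (0.167), without treated replicate 3 (0.0896) or 4 (0.0998), and under 5 of 8 alternatives. Pdia5, a PDI that in human cells has been tied to the activation of ATF6, moved the opposite way to the 6 members that rose. It had 99, 95, 101 and 148 after tunicamycin and 478, 278 and 330 in untreated Ire1 ko liver, without overlap, and fell by 1.70 on the log2 scale (SE 0.20; limma adjusted p = 7.81e-06). In Ire1 ko liver 27.7% of all genes were called, 17.4% higher and 10.3% lower, against 6 and 1 of 9 members. The members' median was 0.71, against 0.00 over all genes.

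Tunicamycin raised 7 members in WT liver. Pdia4 (chr6:47796141-47813512) had 2107, 2001, 2149 and 1927 after tunicamycin and 196, 210, 275 and 139 in untreated WT liver, a log2 change of 3.36 (SE 0.15; limma adjusted p = 4.81e-11). Pdia6 had 2375, 2330, 2236 and 2567 after tunicamycin and 650, 695, 733 and 564 in untreated WT liver, a log2 change of 1.85 (SE 0.09; limma adjusted p = 1.63e-10). Both genes were above every untreated array on every treated one, and Pdia4 changed about 10.3-fold. P4hb had 4125, 4153, 4081 and 3637 after tunicamycin and the untreated values given above, a log2 change of 0.96 (SE 0.08). Txndc5 had 1296, 1546, 1536 and 1349 after tunicamycin, a log2 change of 1.37 (SE 0.08). Erp44 had 865, 944, 977 and 994 after tunicamycin, a log2 change of 1.08 (SE 0.09). In each of these 3 genes the treated WT arrays lay above all untreated ones, with limma adjusted p of 4.7e-08 for P4hb, 1.55e-09 for Txndc5 and 7.06e-08 for Erp44.

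Txndc11 and Pdia3 were dim before treatment and rose too. Txndc11 had 48, 39, 57 and 53 after tunicamycin in WT liver, against 10 to 21 untreated, a log2 change of 1.76 (SE 0.22; limma adjusted p = 6.6e-06) that was 1.03 with its 2 probe sets averaged. Pdia3 (chr2:121413902-121438687) had 19, 24, 33 and 12 after tunicamycin, against 6 to 9 untreated, a log2 change of 1.58 (SE 0.28; limma adjusted p = 0.000226) and of 0.70 on the log2 of the intensity plus 16. Its 1 annotated probe set lay so near the floor that the fold is compressed and the level of the gene may not be well read. Pdia5 (chr16:35397308-35490919) had 372, 455, 422 and 381 after tunicamycin and 323, 309, 422 and 245 in untreated WT liver, groups that overlapped, with a log2 difference of 0.35 (limma adjusted p = 0.168). Tmx1 (chr12:70453154-70467624) had a log2 difference of 0.03. A large part of the transcriptome differed between treated and untreated mice, with 36.1% of genes called and 18.5% higher in WT liver. The 7 of 9 higher members are read against these shares. The members' median was 1.37, against -0.02 over all genes tested. The tunicamycin contrasts and the genotype contrasts of this experiment share arrays, and each is given for its own values. Scaling each array to a shared median of its brighter probe sets shifted the median of all genes to -0.18 in Ire1 ko and -0.14 in WT liver, and the sign of Tmx1 turned there, as did that of Txndc5 in Ire1 ko liver. None of these values with turned sign was called.

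**Figure D3:**
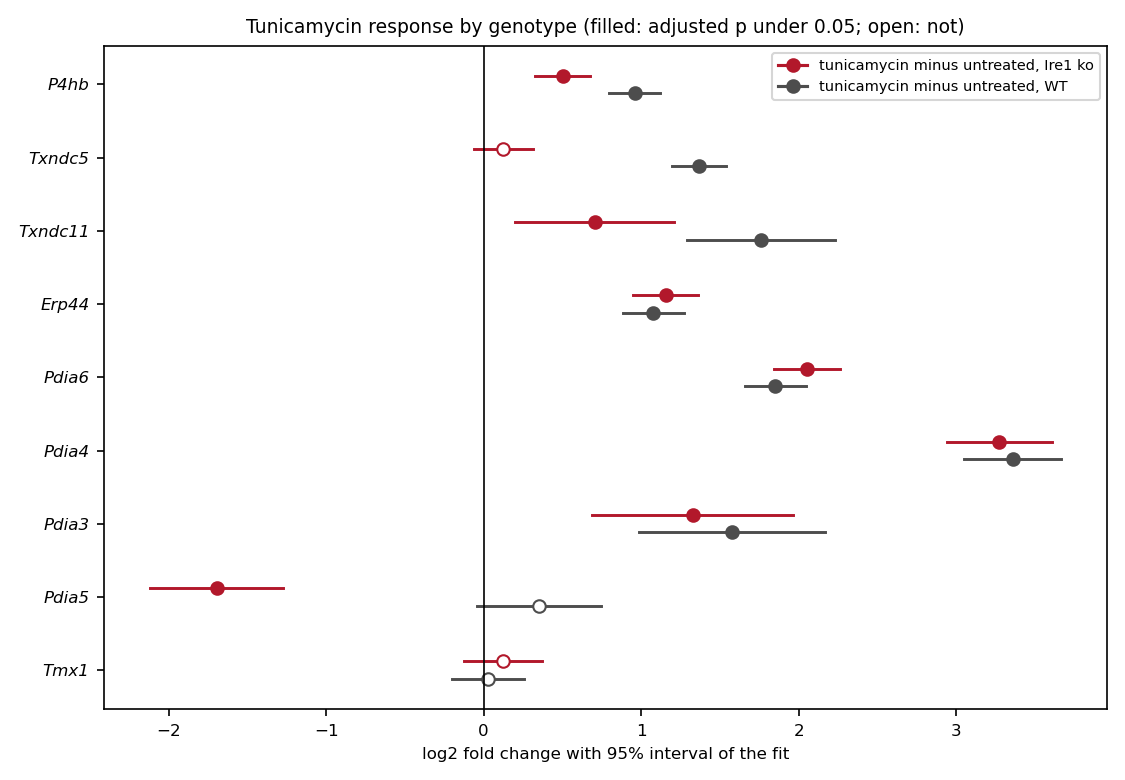
Log2 fold change from tunicamycin with the 95% interval of the fit (horizontal axis) for each member in Ire1 ko and in WT liver; filled points have an adjusted p under 0.05. The intervals lie over each other for Pdia4, Pdia6 and Erp44, whereas Pdia5 lay at -1.70 in Ire1 ko and 0.35 in WT liver and Txndc5 at 0.13 in Ire1 ko and 1.37 in WT liver.

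Whether the response to tunicamycin itself differed between the genotypes was tested by the interaction, the log2 change in Ire1 ko minus that in WT liver. It was lower in Ire1 ko for 3 members and higher for none. The difference was -2.05 (SE 0.27; limma adjusted p = 0.000159) for Pdia5, -1.24 (SE 0.12; limma adjusted p = 8.19e-06) for Txndc5 and -0.46 (SE 0.11; limma adjusted p = 0.0207) for P4hb. The P4hb call was lost without untreated Ire1 ko replicate 1 (adjusted p = 0.0552). Txndc11 had -1.06 (SE 0.32; limma adjusted p = 0.0616), which passed without untreated WT replicate 1 (0.0236) or untreated Ire1 ko replicate 3 (0.0467) and under 4 of 8 alternatives. For Pdia4 the difference was -0.09 with a 95% interval of -0.54 to 0.37, for Pdia6 0.20 with -0.08 to 0.48, and for Erp44 0.08 with -0.20 to 0.36. Hspa5, the BiP gene, had a difference of -0.03 with a 95% interval of -0.31 to 0.25. Xbp1 had a difference of 1.12 (SE 0.15, limma adjusted p = 0.000171) and Ern1 one of 0.51 (limma adjusted p = 0.295). Of 15172 genes, 7.53% differed, 3.95% lower and 3.58% higher, against 3 of 9 members lower, and the members' median of -0.25 compares with 0.05 over all genes.

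After tunicamycin, 6 members were lower in Ire1 ko than in WT liver, and none was higher. From the treated arrays given above, Ire1 ko liver stood below WT liver without overlap for Txndc5 (-2.08, SE 0.08; limma adjusted p = 6.45e-11), Txndc11 (-1.98, SE 0.22; limma adjusted p = 5.67e-06), Pdia5 (-1.90, SE 0.18; limma adjusted p = 1.2e-06) and P4hb (-1.41, SE 0.08; limma adjusted p = 1.87e-09). Txndc11 had -1.14 with its 2 probe sets averaged. The second probe set of Txndc5 lay at 132 to 191 in treated Ire1 ko and at 639 to 756 in treated WT liver. Pdia6 (-0.33, limma adjusted p = 0.0176) and Erp44 (-0.31, limma adjusted p = 0.0234) also passed and did not overlap, with smaller differences. Leaving out treated WT replicate 4 took the Pdia6 call away (0.0588). Leaving out treated WT replicate 3 (0.061) or 4 (0.0658), or treated Ire1 ko replicate 1 (0.0516) or 3 (0.0675), took the Erp44 call away. Pdia4 (-0.32), Pdia3 (-0.30) and Tmx1 (0.08) did not pass. The Pdia4 arrays did not overlap either, at 1536 to 1770 in treated Ire1 ko and 1927 to 2149 in treated WT liver. How many of all genes were without overlap was not counted. Outside the family, Xbp1 (0.82, limma adjusted p = 1.86e-05) and Ern1 (0.55, limma adjusted p = 0.0371) were higher in treated Ire1 ko than in treated WT liver. Hspa5 (-0.25, limma adjusted p = 0.0684) did not pass. Of all genes tested, 18.2% were called, 8.5% lower and 9.68% higher, against 6 of 9 members lower.

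Marker genes of liver cell types moved with tunicamycin. Of the 10 hepatocyte markers Tat (0.78) and Hnf4a (0.40) rose in Ire1 ko liver and 0 fell in limma, against 2 lower at an unadjusted p below 0.05, and the sum of the 10 was 46646 to 49378 in treated and 45106 to 50374 in untreated mice. In WT liver Tat rose by 0.71 and 5 fell, Apoa2, Serpina1a, Apoa1, Ttr and Cyp2e1, by 0.18 to 0.30 on the log2 scale, and their sum was 43702 to 44119 in treated and 46479 to 50005 in untreated mice, without overlap. In treated Ire1 ko against treated WT liver Hnf4a (0.55) and Cyp2e1 (0.16) were higher. The summed intensity of 7 Kupffer cell markers was 590 to 837 in treated and 553 to 1840 in untreated Ire1 ko liver, and 376 to 525 in treated and 581 to 1176 in untreated WT liver. Of these 7, none passed in Ire1 ko liver, by adjusted or unadjusted p, while 2 fell in WT liver, Cd5l (-1.14) and Vsig4 (-1.01), and none rose. Marco was the 1 with an opposite difference in WT liver, 1.02 (limma adjusted p = 0.0733). Of 7 tested stellate cell markers, Col3a1 fell by 1.0 on the log2 scale in Ire1 ko liver, and Col3a1 by 1.36 and Acta2 by 0.92 in WT liver. Of 6 endothelial markers, Kdr fell by 0.49 in Ire1 ko liver, whereas in WT liver Kdr fell by 0.67 and Stab2 by 0.29 and Lyve1 rose by 0.88. The summed list for plasma and B cells reached 903 to 1168 in treated and 42 to 54 in untreated Ire1 ko liver, and 1199 to 1662 in treated and 31 to 64 in untreated WT liver, and this was the rise of 1 gene, Derl3, an ER degradation gene that liver cells also induce under ER stress, while its other 5 measured genes had means below 16. The part of these cells in the members' values was not tested.

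Other genes of the family were followed in the same comparisons. Of 15 further PDI-like genes listed, 14 had a probe set and 10 were tested. With tunicamycin 4 of these rose and 1 fell in Ire1 ko liver, with a median of 0.09, and 4 rose and 4 fell in WT liver, with a median of -0.03. Over all genes 17.4% rose and 10.3% fell in Ire1 ko liver and 18.5% and 17.6% in WT liver, so the 1 gene of 10 that fell in Ire1 ko liver is about the background share. Dnajc10, a PDI that reduces disulfides of proteins bound for degradation, averaged 61.2 ± 2.22 in treated Ire1 ko and 260.5 ± 26.1 in treated WT liver (SD, n = 4 each). Erp29, a chaperone of the PDI fold without the active cysteines, averaged 69.2 ± 3.59 in treated Ire1 ko and 212.5 ± 21.3 in treated WT liver (SD, n = 4 each). These were the 2 listed genes that fell in treated Ire1 ko against treated WT liver, where 8.5% of all genes did, and their interactions were -1.69 for Dnajc10 (limma adjusted p = 1.33e-05) and -1.20 for Erp29 (limma adjusted p = 6.65e-05). In limma 0 of these 10 genes passed in Xbp1 ko, in untreated Ire1 ko or in the siRNA comparison, where 2.71%, 0.943% and 1.79% of all genes did and at an unadjusted p below 0.05 the counts were 3, 2 and 4. The count was 1 in Xbp1 ko without replicate 3, and 1 in the siRNA comparison without replicate 1 or 3 labelled luciferase siRNA.

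ER oxidation and redox genes, as listed here, supply oxidising power, handle cysteines or encode selenoproteins of the ER. Of 15 such genes, 8 fell and none rose in treated Ire1 ko against treated WT liver, with a median of -0.45 against 0.02 over all genes, of which 8.5% fell and 9.68% rose. Selenok, an ER membrane selenoprotein, differed by -1.82 and Selenos, a selenoprotein of ER degradation, by -1.17. Ero1a, the oxidase that recharges PDIs, averaged 155.8 ± 27.6 in treated Ire1 ko and 400.8 ± 49.1 in treated WT liver (SD, n = 4 each). The interaction was lower for 4 of the 15, against 3.95% of all genes, Selenok at -1.33, Ero1a at -1.11, Selenof at -0.57 and Selenos at -0.48, and for 2 of them without untreated Ire1 ko replicate 1. Among partners and clients of PDIs, 6 of 12 tested fell in Xbp1 ko, against 2.07% of all genes, and none rose, among them Sdf2l1 at -1.77, Uggt1, the glycoprotein folding sensor, at -1.45, Hyou1 at -1.41 and Tapbp, which holds PDIA3 in the antigen-loading complex, at -1.25. With tunicamycin 9 of 13 partners rose and 2 fell in Ire1 ko liver, and 10 rose and 2 fell in WT liver, against the shares of all genes given above. The interaction passed for 1 of the 13, against 7.53% of all genes, Hyou1 at 0.96, which was lost without treated Ire1 ko replicate 1, 2 or 4, untreated Ire1 ko replicate 2 or 3, treated WT replicate 1 or 4, or untreated WT replicate 2 or 3, while the count was 2 without untreated WT replicate 4. Tapbp also passed at -1.18 in the siRNA comparison as labelled (limma adjusted p = 0.00337) and at -1.49 in Xbp1 loss against Ire1 loss (limma adjusted p = 4.73e-07). Of 19 tested proteins of the thioredoxin fold that work outside the ER, 2 rose and 2 fell in treated Ire1 ko against treated WT liver. These are about the background shares of 9.68% and 8.5%. In Xbp1 ko 2 rose and 1 fell, against 0.642% and 2.07% of all genes, and 1 to 2 were called with any 1 array left out. With tunicamycin 4 rose and 4 fell in Ire1 ko liver. In WT liver 6 rose and 5 fell, against 18.5% and 17.6% of all genes. The interaction was lower for 1 of these 19, Txnl1, at -0.68 (limma adjusted p = 0.00303), and for 2 without treated Ire1 ko replicate 3.

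**Figure D4:**
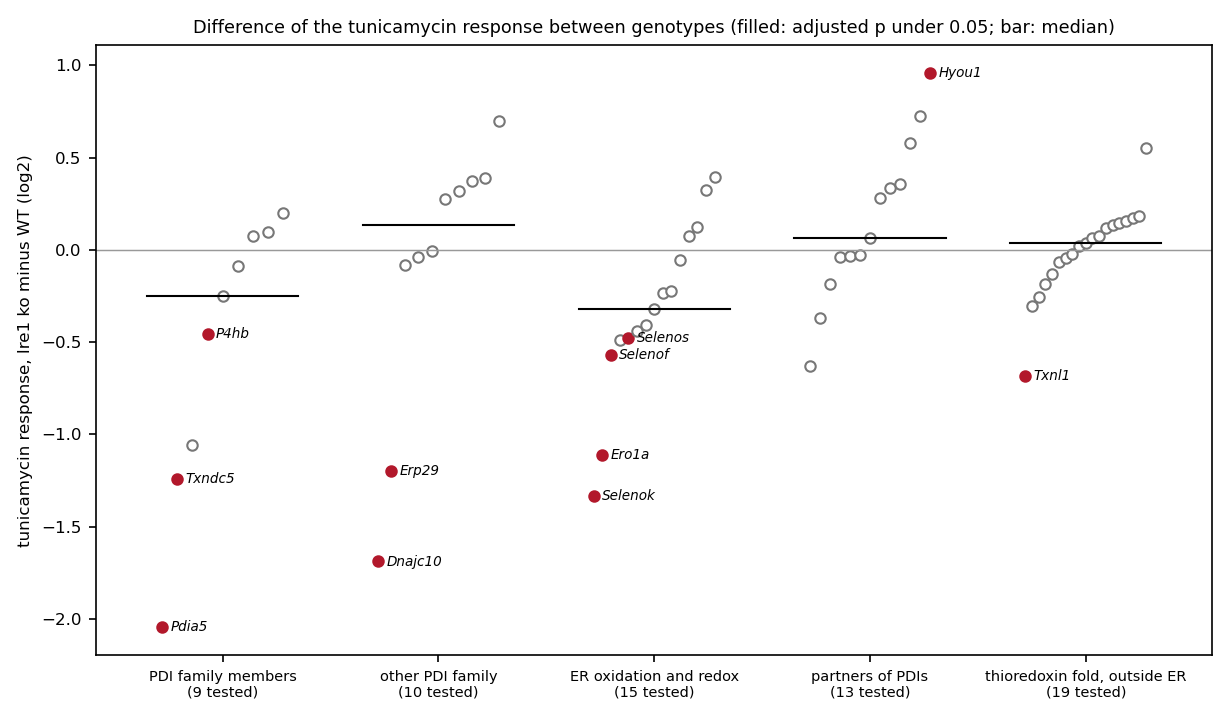
Difference of the tunicamycin response, Ire1 ko minus WT liver, on the log2 scale (vertical axis) for the genes tested in 5 lists (horizontal axis), each point a gene, filled where the adjusted p was under 0.05, with a bar at the median of the list. Among the members Pdia5 lay at -2.05, Txndc5 at -1.24 and P4hb at -0.46, and Dnajc10 and Erp29 lay at -1.69 and -1.20 among the other PDI-like genes.

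Across the 8 groups the order of levels differed between members. P4hb was highest in treated WT liver, followed by untreated WT and WT littermates, whose arrays overlapped, then by treated Ire1 ko liver, and then by untreated Ire1 ko and Xbp1 ko liver, which overlapped. Txndc5 had the same leading groups, but its treated and untreated Ire1 ko arrays overlapped, and Xbp1 ko liver stood lowest, apart from all others. That place was not shared by the second Txndc5 probe set. There Xbp1 ko liver lay at 124 to 133 and overlapped the arrays labelled IRE1 siRNA, at 95 to 131, whose mean was lower. Erp44 separated nearly every neighbouring pair of groups in its order, and only Xbp1 ko liver and the arrays labelled IRE1 siRNA overlapped at its low end. Pdia6 and Pdia4 had both treated groups on top, apart from the rest. Pdia4 showed overlap between every other pair of neighbours. Neighbouring groups of Pdia5 overlapped throughout, and its highest array in treated Ire1 ko liver, 148, equalled the lowest of the WT littermates. Neighbours also overlapped throughout for Tmx1. Levels across the 3 experiments come from 1 deposited table, and whether all arrays were normalised in 1 run is not given in the sources used here.

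The members fell into different profiles when each array's log2 value was taken relative to the gene's mean within its experiment. Over the 31 arrays P4hb and Txndc5 had a Pearson r of 0.97 and Pdia4 and Pdia6 one of 0.96, whereas Pdia5 had -0.30 with Pdia4 and 0.43 with Txndc5. The arrays fall into groups and share their normalization, so that these r describe differences between groups and carry no p. Of 6600 genes compared, the gene most like each member was Spcs2 for P4hb (0.98), P4hb for Txndc5 (0.97), Atg13 for Txndc11 (0.97), Sil1 for Erp44 (0.91), Sdf2l1 for Pdia6 (0.99), Hspa5 for Pdia4 (0.99), Btg3 for Pdia3 (0.90), Bbip1 for Pdia5 (0.85) and Serpinb6a for Tmx1 (0.65). The mean profile of the 9 members was most like that of Selenos (0.98), Edem1 (0.97), Uso1 (0.96), Dnpep (0.96), Selenok (0.95) and Dnajb9 (0.95). Pdia5 and Tmx1 stood away from this mean profile, with r of 0.12 and 0.11, against 0.77 to 0.89 for the other 7 members. Each member's own values are part of the mean profile, which raises its r.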

How the data were processed

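Per the submitters' processing notes, the deposited intensity values were made from the arrays with RMA and the affy package, for which no versions are given. The deposited table gives linear intensities of 45037 probe sets as whole numbers, and each deposited intensity was turned into its log2 before testing. All 31 columns were mapped to samples by the sample identifiers that name them, and 0 were left unmapped. The titles gave group and replicate. The annotation gave exactly 1 symbol to 28898 probe sets, several to 551, and did not list 15588. A gene was read by its probe set with the highest mean. Comparisons used R 4.3.3 and the lmFit and eBayes functions of limma 3.58.1 (intensity trend, two-sided) in fits of the Xbp1, siRNA and Ire1 arrays and in 1 fit of all arrays for the Xbp1 loss against the Ire1 loss. Genes entered a fit if 3 or more of its arrays had them above that array's 30th percentile, with Benjamini-Hochberg adjustment over all genes tested and a threshold of 0.05. The number of arrays limits the precision.

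The fits were tested on simulated data. The 8 alternatives were quantile normalization, arrays scaled to a common median of brighter probe sets, only genes reaching an intensity of 16, no filter, averaged probe sets, log2 of the intensity plus 16, 1 fit of all arrays, and a replicate block, and each array was left out in turn. Replicate numbers are shared between groups, but the labels do not say that equal numbers share a litter, day or batch. The main fits therefore carry no block. Correlations of same-numbered arrays, taken relative to group means, lay between -0.183 and 0.273. They were 0.013 to 0.243 in the Xbp1 comparison and 0.09 to 0.186 in treated Ire1 ko against treated WT liver. Whether same-numbered arrays share a litter or batch is not known. Members were named throughout, and of each other list up to 4 called genes with the smallest adjusted p. Values of Ern1, Xbp1 and Hspa5 are given for some of the comparisons only. The genes of closest profile were ranked by Pearson r over 31 arrays. The members and lists were chosen with earlier results of these data known. Promoter windows came from RefSeq (GRCm38.p6) and were matched by symbol.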

Additional observations from a re-analysis of the deposited data

Results flagged for a closer look

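Within 5 of the 63 groups of 4 arrays checked over the members, 1 array stood apart from the other 3 by more than Dixon's 95% critical value. Chance alone marks about 1 in 20 such groups where values are continuous and normally distributed. That rate does not hold for dim members in whole numbers, where 3 equal arrays and 1 other are always marked. For P4hb the treated WT array of 3637 lay below the other 3, which held 4081 to 4153. For Pdia5 the treated Ire1 ko array of 148 lay above the other 3, which held 95 to 101, and Pdia5 kept its call in treated Ire1 ko against treated WT liver with any 1 array left out. For the dim members the steps were 1 to 3 units of a rounded intensity: Pdia3 at 6 against 7 on the arrays labelled luciferase siRNA, Txndc11 at 7 against 8 on the same arrays, and Txndc11 at 13 against 10 in WT littermates of Xbp1 ko.

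The response to tunicamycin differed between Ire1 ko and WT liver, by the test of the interaction, for P4hb (-0.46), Pdia5 (-2.05) and Txndc5 (-1.24). The loss of Xbp1 and the loss of Ire1 differed for Erp44 (-1.42).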

How the results depend on the processing

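No result turned its direction while called, under any of the 8 alternatives or with any 1 array left out. The members' counts under the alternatives were 3 to 5 in Xbp1 ko, 6 in Ire1 ko against WT liver after tunicamycin, 7 for tunicamycin in WT, 6 to 7 for tunicamycin in Ire1 ko and 2 to 4 for the interaction. A filter at an intensity of 16 gave 5 members in untreated Ire1 ko liver in place of 3, with Erp44 and Txndc11 added. The mean of Txndc11 was below 16 in both untreated groups of that comparison and above 16 only in treated WT liver. Its added call is therefore not that of a gene bright in untreated liver. In Xbp1 loss against Ire1 loss, scaling to a common median or a filter at 16 gave 2 members in place of 1. Averaged probe sets gave 0 members in the siRNA comparison in place of 1. The replicate number was also used as a replicate block, though the labels do not say what equal numbers share. The siRNA comparison then gave 0 members and 43 genes in place of 251. The Xbp1 comparison gave 197 genes in place of 380. Under that block Pdia6 in Xbp1 ko had an adjusted p of 0.0589, Erp44 in the siRNA comparison 0.0954 and P4hb in the interaction 0.052. One fit of 31 arrays gave 571 genes in the Xbp1 comparison, and a filter at 16 gave 402 in the siRNA comparison. With 1 array left out, the members' counts were 4 to 5 in Xbp1 ko, 1 to 1 in the siRNA comparison, 2 to 4 in untreated Ire1 ko, 4 to 6 in treated Ire1 ko, 7 to 7 for tunicamycin in WT, 6 to 7 in Ire1 ko, 2 to 4 for the interaction and 1 to 2 for Xbp1 loss against Ire1 loss, where 2 came without WT replicate 4. Over all genes they were 237 to 373, 189 to 254, 95 to 147, 2335 to 2530, 5058 to 5236, 3559 to 3959, 926 to 1108 and 109 to 146 in the same order. The cause of these differences was not tested. Signal limits Pdia3 and Txndc11, which lay near the floor without tunicamycin, so small changes there could not be read.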
